A study of Homo sapiens with 18 samples.

Results

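MAP kinase phosphatases are dual-specificity enzymes that switch off MAP kinases by removing phosphate from both the threonine and the tyrosine of the activation loop. Their transcripts are described here by the 10 genes DUSP1, DUSP2, DUSP4, DUSP5, DUSP6, DUSP7, DUSP8, DUSP9, DUSP10 and DUSP16, chosen by name out of 55765 gene symbols, and each was found once in both count tables. RNA was sequenced from OVCAR3, an established line of high-grade serous ovarian carcinoma cells, as 2 series of 9 libraries with 3 libraries in each of 6 groups. In the first series the cells received IgA or IgG of no defined antigen, or no antibody. In the second they received IgA reactive with TSPAN7, a tetraspanin of the cell surface, IgA reactive with BDNF, a neurotrophin, or no antibody. Both specific antibodies came from the medium of tumour-derived B cells. Antibodies were used at 0.5 µg/ml for 24 h in medium with 2% serum according to the labels and the methods, whereas another description of the experiments gives a shorter incubation. No group carried a deletion or a transgene, and every group was the same cell line, so donors did not vary. The labels do not say that replicates were separate cultures, and the study describes those of the first series as separate experiments without saying what each one repeated. The p-values measure only the spread between these libraries.

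These phosphatases fall into 3 classes by location and substrate. DUSP1, DUSP2, DUSP4 and DUSP5 are nuclear enzymes whose genes are known to be induced when MAP kinases are activated, which makes them feedback inhibitors. DUSP6, DUSP7 and DUSP9 are cytoplasmic and prefer the kinase ERK, and DUSP8, DUSP10 and DUSP16 act mainly on the stress kinases JNK and p38. In carcinoma cells, where signals from growth factor receptors and RAS run through ERK, such enzymes are known to limit the length and the place of the ERK signal.

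Promoter sequence is shown for DUSP1 and DUSP8, the members with a full cyclic AMP response element (CRE), and for DUSP6. Like DUSP9, DUSP10 and DUSP16, DUSP6 holds none of the motifs searched. Over untreated cells the log2 fold changes of DUSP1, DUSP8 and DUSP6 were 0.53, 0.51 and -0.18 with TSPAN7 IgA. With BDNF IgA they were -0.11, 0.47 and -0.06, and with IgA of no defined antigen 2.84, 0.03 and 1.55. DUSP9, DUSP10 and DUSP16 had -0.35, 0.14 and 0.16 with TSPAN7 IgA. Whether the motifs bear on these values was not tested. The sequences are the 250 bases before the start of transcription in RefSeq (GRCh38.p14). They lie at chr5:172771196-172771445 on the minus strand for DUSP1, at chr11:1572272-1572521 on the minus strand for DUSP8 and at chr12:89352502-89352751 on the minus strand for DUSP6. Each is written 5′ to 3′, and capitals mark a match to a CRE, the CRE core or a TATA box on either strand.
DUSP1 promoter: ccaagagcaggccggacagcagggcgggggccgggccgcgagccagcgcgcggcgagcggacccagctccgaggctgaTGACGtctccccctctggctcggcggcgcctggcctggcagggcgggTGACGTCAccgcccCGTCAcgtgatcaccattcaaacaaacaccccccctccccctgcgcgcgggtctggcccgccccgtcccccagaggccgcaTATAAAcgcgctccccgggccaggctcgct
DUSP8 promoter: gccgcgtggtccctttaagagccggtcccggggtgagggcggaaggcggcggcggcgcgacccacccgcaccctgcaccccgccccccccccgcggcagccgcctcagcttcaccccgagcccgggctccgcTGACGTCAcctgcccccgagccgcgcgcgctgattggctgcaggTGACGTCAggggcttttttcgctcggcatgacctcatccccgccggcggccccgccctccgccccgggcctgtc
DUSP6 promoter: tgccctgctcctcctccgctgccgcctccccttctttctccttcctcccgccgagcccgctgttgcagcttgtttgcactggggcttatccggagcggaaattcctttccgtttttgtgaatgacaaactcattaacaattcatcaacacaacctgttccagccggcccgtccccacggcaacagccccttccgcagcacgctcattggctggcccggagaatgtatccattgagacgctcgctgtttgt
The letters TGACGTCA of the CRE began 125 bases before the start in DUSP1, and 118 and 74 bases before it in DUSP8. That motif was in 1.65% of 35116 RefSeq promoters of the same length, and in none of the other 6 members with an entry (8 of 10 members matched, DUSP4 and DUSP5 being without one). Each CRE contains the core TGACG on both strands, and the core was in 21.2% of promoters. A TATA box (TATAAA, in 10.7% of promoters) stood 30 bases before the start of DUSP1. The AP-1 site TGANTCA (6.57% of promoters) and the CArG box bound by serum response factor (1.16%) matched in no member. An NF-kB site (9.96%) was in DUSP7 and an E box (CACGTG, 6.34%) in DUSP1 and DUSP2, the one in DUSP1 overlapping a core. A match describes letters in this window and shows no binding.

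Libraries of the first series held 27920733 to 42371474 counts, and those of the second 39254350 to 47381836. The common dispersion, a measure of the spread between replicates, was 0.0307 and 0.00303, so that the second series measured a given fold change more precisely. IgA replicate 3 stood apart, with 19.1% of its counts from the mitochondrial genome against 5.75% to 8.32% in the other 8 libraries of the first series. All 8 epithelial carcinoma markers were present, with a summed level of 4299 to 7122 CPM. CPM is the usual count scaled to the library total, but for the markers this total was adjusted by the TMM factors that make libraries comparable. The 8 leukocyte markers summed to between 0.715 and 2.13 CPM, with CD3E and MS4A1 at 2 counts or fewer and NKG7 at 0 in every library. The summed level of the fibroblast and endothelial markers found (7 of 8) was 59.6 to 91.4 CPM outside the IgA group. Within that group it was 69.8 to 138.8 CPM, and COL1A1 and COL1A2 made up most of both. By the edgeR test described below, these 2 genes were higher with IgA over IgG (log2 fold change 0.64 and 0.66). Of the epithelial markers 2 were higher and 2 lower there, against 12.6% and 11.6% of all genes, and WT1 changed most (-1.17). PTPRC, at 6 to 56 counts, was higher with TSPAN7 IgA over untreated cells (1.39) by edgeR but not by DESeq2. The part of these markers in the results was not tested.

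In untreated cells of the second series DUSP1 was the most abundant member by far. Levels between genes are given as CPM per kilobase of exon, since a longer transcript collects more reads. DUSP1 stood at 30.4 ± 2.33 (SD, n = 3) and DUSP5 followed at 9.87 ± 0.70. DUSP6 (5.41 ± 0.21), DUSP16 (4.84 ± 0.26), DUSP4 (4.54 ± 0.088), DUSP7 (4.06 ± 0.075) and DUSP10 (3.71 ± 0.060) formed a middle group. DUSP8 stood at 1.02 ± 0.087, DUSP9 at 0.362 ± 0.052 and DUSP2 at 0.0598 ± 0.015. Of the neighbours in this order only DUSP16 and DUSP4 overlapped between libraries. The order of the middle group rests on the transcript length used: with the longest transcript in place of all exons it read DUSP7, DUSP4, DUSP6, DUSP16 and DUSP10, with the places above and below unchanged.

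**Figure D1:**
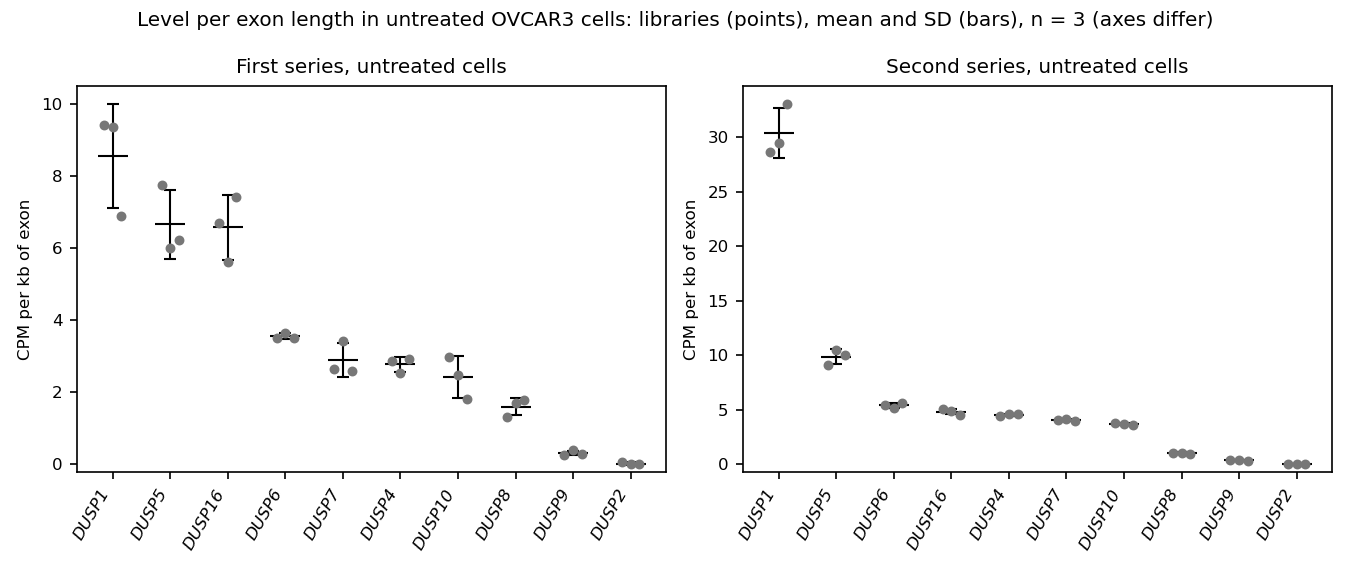
Level of each member in untreated cells of the first series (left) and the second series (right), in CPM per kilobase of exon, with a point for each library and bars for the mean and SD (n = 3). DUSP1 leads in both panels, at 8.56 in the first and 30.4 in the second, and DUSP9 and DUSP2 come last.

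The untreated cells of the first series had a flatter profile. DUSP1 (8.56 ± 1.44), DUSP5 (6.67 ± 0.96) and DUSP16 (6.58 ± 0.90) led in CPM per kilobase and overlapped with their neighbours. DUSP6 followed at 3.56 ± 0.088, and DUSP7 (2.89 ± 0.47), DUSP4 (2.78 ± 0.22) and DUSP10 (2.42 ± 0.59) overlapped in the same way. With the longest transcript in place of all exons DUSP16 came before DUSP5 and DUSP7 before DUSP6. DUSP8 came next at 1.61 ± 0.24, then DUSP9 at 0.318 ± 0.066. DUSP2 had 0 counts in 2 of the 3 libraries and 4 counts in the other. The series are separate count tables, each with its own untreated cells, and a level in one was not tested against the other.

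As a whole the 10 transcripts made up a small part of each library, and the part was larger with TSPAN7 IgA. They summed to 210.3 to 217.9 CPM in untreated cells of the second series, 210.7 to 246.7 with BDNF IgA and 259.7 to 265.1 with TSPAN7 IgA. The TSPAN7 IgA libraries lay above all others of that series, and the BDNF IgA group overlapped with untreated cells, its replicate 2 being the high one. In the first series the sums were 142.8 to 151.8 in untreated cells, 142.9 to 163.9 with IgG and 381.9 to 406.3 with IgA. All 3 IgA libraries lay above every other library of their series.

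The make-up of these counts differed between the antibodies, which is described here without a test. DUSP1 and DUSP5 together supplied 40.2% ± 1.89 of the member counts in untreated cells of the second series, 38.1% ± 4.20 with BDNF IgA and 48.0% ± 2.09 with TSPAN7 IgA. DUSP1 alone supplied 28.5% ± 1.73, 25.5% ± 3.98 and 33.7% ± 1.37 in the same order. The nuclear class as a whole made up 55.7% ± 1.83 in untreated cells and 61.2% ± 1.56 with TSPAN7 IgA, whereas the share of DUSP6 was 9.35% to 9.96% and 6.53% to 7.29%. In the first series DUSP16, a large transcript, supplied more counts than any other member in untreated cells with 31.9% ± 3.98 and with IgG (25.5% to 35.8%), and it supplied 8.34% ± 1.68 with IgA. That lead rests on transcript length: per kilobase of exon DUSP1 led in untreated cells with 24.1% ± 3.10 of the summed level, and DUSP16 had 18.7% ± 3.18, against 3.32% ± 0.87 with IgA. There DUSP5 supplied 39.3% ± 4.14, against 11.5% ± 1.31 in untreated cells. The JNK- and p38-directed class supplied 42.0% ± 3.30 of the untreated and 14.5% ± 0.73 of the IgA member counts. A share falls when another member rises, so these values do not say that DUSP16 or DUSP6 transcripts became fewer.

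**Figure D2:**
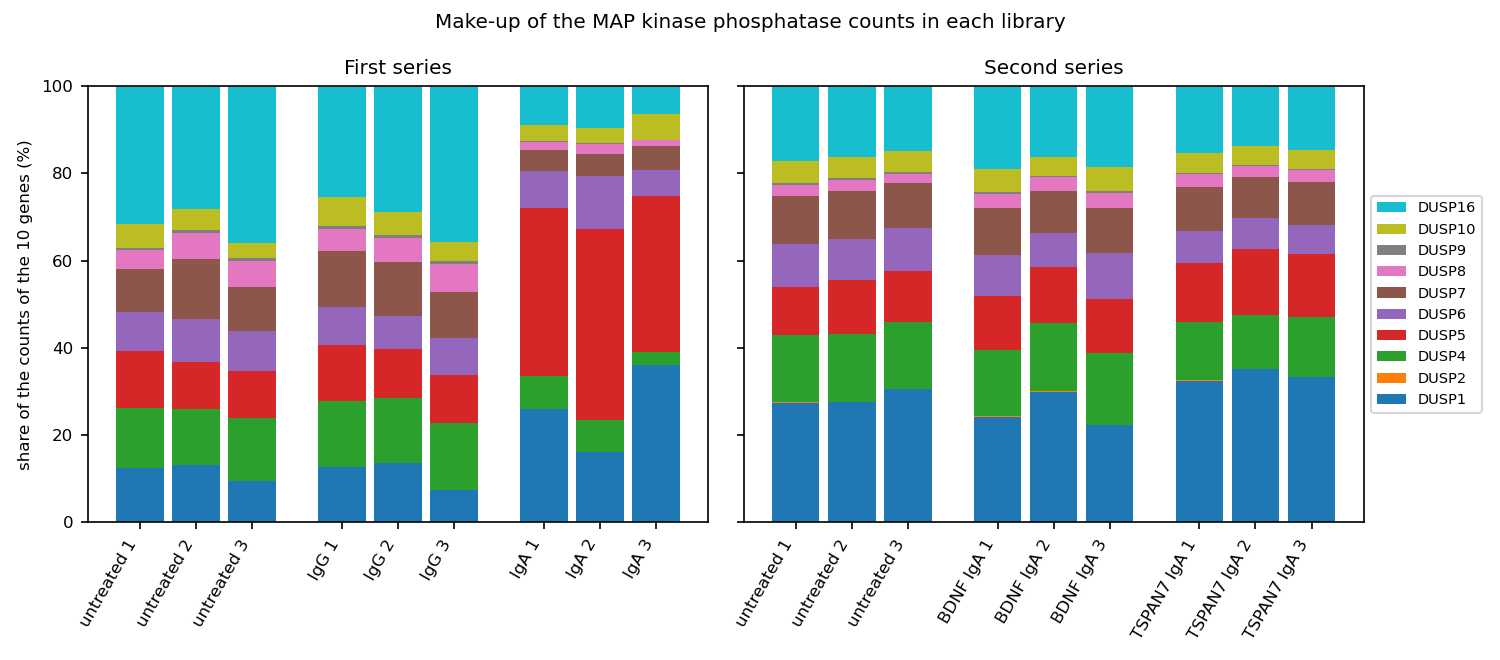
Share of each member in the counts of the 10 members, in percent, for each library of the first series (left) and the second series (right). DUSP16 takes 31.9% of the untreated bars on the left on average and 8.34% of the IgA bars, while DUSP5 takes 11.5% and 39.3%, and on the right DUSP1 takes 28.5% in untreated cells and 33.7% with TSPAN7 IgA.

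TSPAN7 IgA raised 3 members over untreated cells. DUSP1, DUSP5 and DUSP8 were higher and none was lower among 9 members tested (two-sided edgeR quasi-likelihood test with p adjusted by Benjamini-Hochberg and a threshold of 0.05), DUSP2 being too low to test. Of 18732 genes tested, 4.46% were higher and 4.08% lower in the same comparison. At an unadjusted p under 0.05 there was 1 lower member, DUSP6, and DESeq2 also called 3 higher and 0 lower. The median log2 fold change was 0.16 over the members tested and 0.00 over all genes.

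DUSP5, a nuclear phosphatase specific for ERK, had the smallest adjusted p of the members (chromosome 10, 112257665 to 112271291, plus strand, GRCh37). Its normalised counts, scaled to the mean library size of the series, were 983, 1128 and 1088 in the untreated libraries. They were 1124, 1336 and 1111 with BDNF IgA and 1514, 1703 and 1604 with TSPAN7 IgA. Every TSPAN7 IgA library lay above every other library, and the BDNF IgA libraries overlapped with the untreated ones. The log2 fold change over untreated cells was 0.59 (SE 0.07, adjusted p 1.44e-05) with TSPAN7 IgA, a gain of 50.7%. With BDNF IgA it was 0.16 (SE 0.07, adjusted p 0.213). The test of TSPAN7 against BDNF IgA itself gave 0.43 (SE 0.07, adjusted p 7.61e-04).

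DUSP1, the archetype of the family, acts on p38 and JNK as well as ERK in the nucleus (chromosome 5, 172195099 to 172198198, minus strand). It had 2458, 2515 and 2845 normalised counts in untreated cells. With BDNF IgA the values were 2173, 3098 and 1979, and with TSPAN7 IgA 3644, 3990 and 3679. The TSPAN7 IgA group did not overlap with either other group, while BDNF IgA replicate 2 lay above and its fellows below all untreated libraries. DUSP1 was higher with TSPAN7 IgA by 0.53 on the log2 scale over untreated cells (SE 0.10, adjusted p 0.00197) and by 0.64 over BDNF IgA (SE 0.10, adjusted p 5.16e-04). A robust estimate of the spread ended both calls, with adjusted p 0.121 and 0.0739. With BDNF IgA the difference from untreated cells was -0.11 (SE 0.10, adjusted p 0.594). Without BDNF IgA replicate 2 it was -0.33 (adjusted p 3.57e-04) and passed the test as lower, and without replicate 3 it was 0.01, so that its direction rests on single libraries. In the same fits without BDNF IgA replicate 2 the difference between TSPAN7 and BDNF IgA was 0.86 for DUSP1 and 0.53 for DUSP5.

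DUSP4, which removes phosphate from ERK and JNK in the nucleus, did not pass the test. Its normalised counts were 1375 to 1425 in untreated cells, 1356 to 1611 with BDNF IgA and 1392 to 1507 with TSPAN7 IgA, and the 3 groups overlapped. The log2 fold changes were 0.07 and 0.06 over untreated cells, the latter with an interval of 2 SE from -0.07 to 0.18. DUSP2, a phosphatase best known from activated lymphocytes, had 4 to 6 counts in untreated cells, 6 to 8 with BDNF IgA and 3 to 9 with TSPAN7 IgA, with no change detectable at this depth.

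The cytoplasmic ERK phosphatases showed no call in the second series. DUSP6, the ERK phosphatase whose own gene ERK induces, had 888, 852 and 928 normalised counts in untreated cells and 835, 804 and 925 with BDNF IgA. With TSPAN7 IgA the values were 817, 815 and 721. All 3 TSPAN7 IgA libraries lay below all untreated ones, with a log2 fold change of -0.18 (SE 0.07, adjusted p 0.135). The counts of DUSP6 may include reads of an antisense RNA that shares 1105 of its 3859 exon bases, since no source says that strand was used in counting. DUSP7, a close relative, had 967 to 995 normalised counts in untreated cells, 927 to 1002 with BDNF IgA and 1072 to 1121 with TSPAN7 IgA. The TSPAN7 IgA libraries did not overlap with the others, yet the log2 fold changes of 0.16 over untreated cells and 0.18 over BDNF IgA missed the threshold (adjusted p 0.114 and 0.0710). Without BDNF IgA replicate 2 the latter passed (0.21, adjusted p 0.0285). DUSP9, an X-linked member, had 36.1 to 47.5 normalised counts in untreated cells, 27.0 to 52.3 with BDNF IgA and 29.2 to 35.8 with TSPAN7 IgA. Its value of -0.35 with TSPAN7 IgA had an SE of 0.28 (adjusted p 0.499).

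DUSP8 was the member called higher with both specific antibodies (chromosome 11, 1575281 to 1593501, minus strand). Normalised counts of this JNK and p38 phosphatase, best known from brain and heart, were 224, 229 and 196 in untreated cells. They were 277, 320 and 297 with BDNF IgA and 342, 272 and 306 with TSPAN7 IgA. All antibody-treated libraries lay above all untreated ones, and the antibody groups overlapped each other. The log2 fold change was 0.47 (SE 0.11, adjusted p 0.0125) with BDNF IgA and 0.51 (SE 0.11, adjusted p 0.00621) with TSPAN7 IgA, over the same 3 untreated libraries. Without untreated replicate 3, the lowest, the former was 0.40 with adjusted p 0.0706. TSPAN7 IgA differed from BDNF IgA by 0.04, with an interval of 2 SE from -0.18 to 0.26. Its pseudogene DUSP8P5 had 64 to 95 counts in these libraries and log2 values of -0.15 and -0.11 with the antibodies, neither called.

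BDNF IgA raised DUSP8 and DUSP16 over untreated cells, 2 of 9 members tested, and lowered none, while 4.49% of all genes were higher and 3.18% lower. At an unadjusted p under 0.05 there were 3 higher and 0 lower members, and DESeq2 called 2 higher and 0 lower. DUSP16, which acts on JNK and p38 and shuttles between nucleus and cytoplasm, lies on chromosome 12 (12626216 to 12715797, minus strand). It had 1542, 1473 and 1394 normalised counts in untreated cells and 1714, 1681 and 1644 with BDNF IgA. The groups did not overlap, and the log2 fold change was 0.19 (SE 0.06, adjusted p 0.0402). This call was close to the threshold and was lost on leaving out any of 5 libraries, with adjusted p from 0.0534 to 0.173: BDNF IgA replicate 1 or 3, TSPAN7 IgA replicate 3, or untreated replicate 2 or 3. With TSPAN7 IgA the values were 1730, 1549 and 1628, all above untreated cells, for a log2 fold change of 0.16 (SE 0.06, adjusted p 0.102). The difference between both antibodies was -0.04, with an interval of 2 SE from -0.15 to 0.08, so a difference between them in DUSP16 was not shown. DUSP10, a p38 and JNK phosphatase, had 441 to 453 normalised counts in untreated cells, 457 to 482 with BDNF IgA and 474 to 505 with TSPAN7 IgA. Both antibody groups lay above untreated cells without passing the test (0.07 and 0.14, adjusted p 0.637 and 0.298).

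Set directly against BDNF IgA, TSPAN7 IgA gave higher DUSP1 and DUSP5 and no lower member, with 3.42% of all genes higher and 4.5% lower. The count of lower members was also 0 at an unadjusted p under 0.05 and with DESeq2. The members had a median of 0.04 and all genes of 0.00. The 3 comparisons of the second series share libraries, so their values are not separate evidence.

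**Figure D3:**
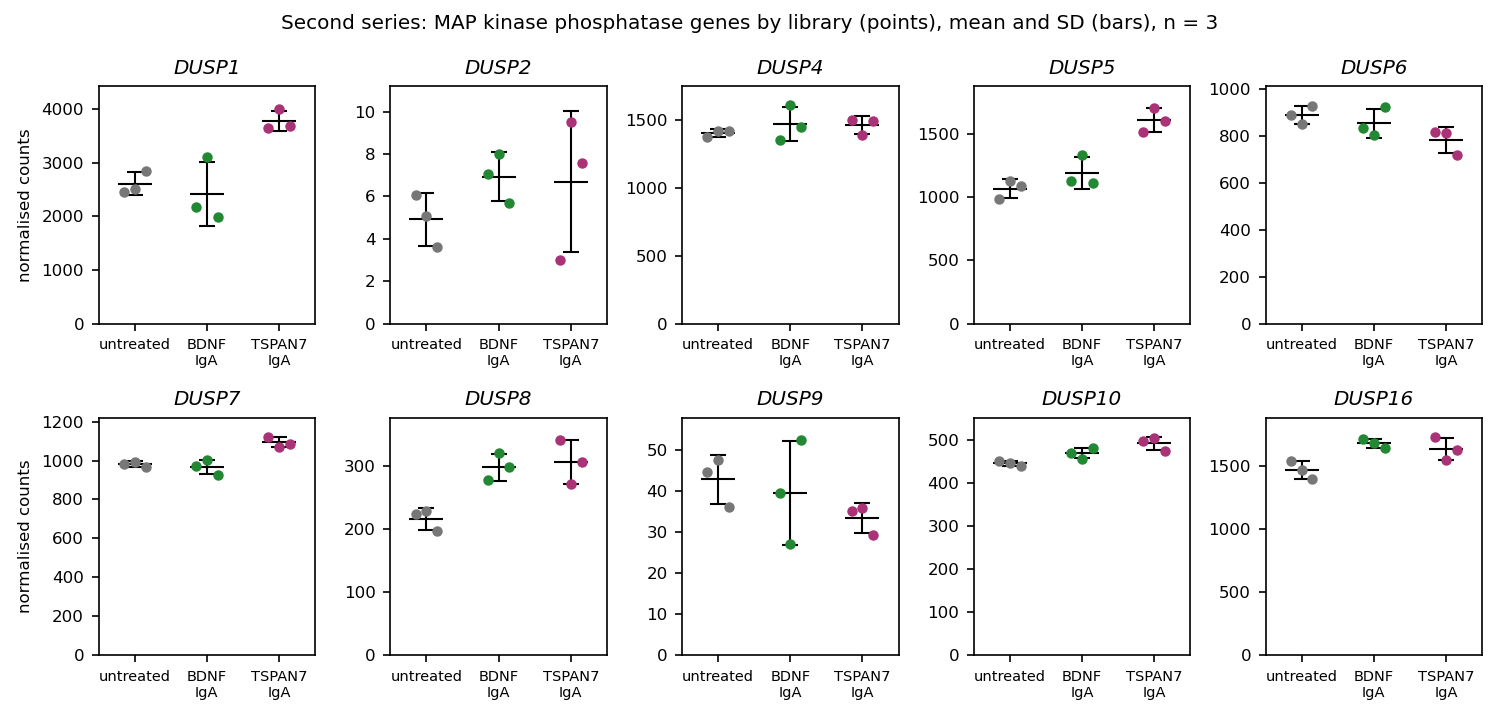
Normalised counts of each member in the second series, a point for each library of untreated cells, BDNF IgA and TSPAN7 IgA, with bars for the mean and SD (n = 3), on axes that start at 0 and differ between panels. The TSPAN7 IgA points of DUSP5 (1514 to 1703) lie above all other points, those of DUSP8 overlap with BDNF IgA, and those of DUSP6 (721 to 817) lie below untreated cells.

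In the first series members were higher with IgA of no defined antigen than in both other groups. Against IgG, DUSP1, DUSP5, DUSP6 and DUSP10 were higher and 0 were lower among 9 members tested. Against untreated cells DUSP7 was also higher, making 5. The backgrounds were 12.6% of 18012 genes higher and 11.6% lower against IgG, and 12.9% and 12.1% against untreated cells. The authors drew attention to this family in these same libraries, so the count is not independent evidence of its direction. At an unadjusted p under 0.05, 0 members were lower against IgG and 1, DUSP16, against untreated cells, and DESeq2 called the same numbers in each direction as edgeR. The median of the members was 0.39 against IgG and 0.54 against untreated cells, where all genes had -0.01 in both. Scaling by library size alone moved the median of all genes to -0.25 and -0.22, and it split the calls against IgG into 873 genes up and 3629 down in place of 2265 and 2095. Against untreated cells the split was 1001 up and 3291 down in place of 2316 and 2187. That shift is small beside the changes of DUSP1, DUSP5, DUSP6 and DUSP10. DUSP7 against untreated cells was at 0.32 under it (adjusted p 0.164), and DUSP16 passed as lower (-0.50, adjusted p 0.0476).

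DUSP5 separated the groups completely. It had 653, 518 and 538 normalised counts in untreated cells, 697, 598 and 536 with IgG, and 5973, 6281 and 6006 with IgA. The 3 IgA libraries lay close together although they differed in mitochondrial share. The log2 fold change was 3.32 over IgG (SE 0.13, adjusted p 1.69e-08), which is 9.96-fold, and 3.42 over untreated cells. DUSP5 thereby took the first place in the IgA group, at 61.6 ± 7.94 CPM per kilobase, where it overlapped with DUSP1 at 51.1 ± 18.04.

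DUSP1 rose in every IgA library but to unequal levels. Its normalised counts were 629, 641 and 474 in untreated cells and 685, 727 and 360 with IgG. With IgA they were 4040, 2329 and 6083, the highest in replicate 3. The log2 fold change over IgG was 2.81 (SE 0.32, adjusted p 8.42e-05), and it was 2.42 without IgA replicate 3. DUSP4 went the other way between IgA libraries: 1186 and 1031 normalised counts in replicates 1 and 2, and 499 in replicate 3, against 626 to 727 in untreated cells and 730 to 815 with IgG. DUSP4 was not called over IgG (0.23, SE 0.23, adjusted p 0.506). Without IgA replicate 3 it was higher, by 0.51 over IgG (adjusted p 0.00636) and 0.70 over untreated cells (adjusted p 7.87e-04), and without IgA replicate 1 its value over IgG was -0.01. DUSP2 had 0 counts in all 3 IgA libraries, 0 to 2 with IgG and 0 to 4 in untreated cells.

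Among the cytoplasmic enzymes DUSP6 rose. It had 450, 480 and 462 normalised counts in untreated cells, 478, 405 and 397 with IgG, and 1320, 1733 and 1027 with IgA, with no overlap. The log2 fold change was 1.67 over IgG (SE 0.17, adjusted p 4.09e-05) and 1.55 over untreated cells (SE 0.17, adjusted p 6.15e-05). DUSP7 had 498 to 661 normalised counts in untreated cells, 512 to 688 with IgG and 748 to 897 with IgA. Its log2 fold change was 0.39 over IgG (SE 0.16, adjusted p 0.0898) and 0.54 over untreated cells (SE 0.16, adjusted p 0.0236). The latter call was lost without untreated replicate 1 (0.47, adjusted p 0.104) or 3 (0.48, adjusted p 0.100). DUSP9 had 39 and 30 counts in IgA replicates 1 and 2 and 0 in replicate 3, and was not called.

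Of the stress kinase phosphatases DUSP10 alone passed the test with IgA. It had 278, 240 and 174 normalised counts in untreated cells, 351, 278 and 210 with IgG, and 588, 490 and 994 with IgA. The groups did not overlap, and IgA replicate 3 was again the highest. The log2 fold change over IgG was 1.30 (SE 0.27, adjusted p 0.00454), and 0.94 without IgA replicate 3 (adjusted p 0.00713). DUSP8 had 248 to 308 normalised counts with IgA, overlapping with the 218 to 301 of untreated cells and the 268 to 307 with IgG. Its log2 value over IgG was -0.08, with an interval of 2 SE from -0.43 to 0.26. DUSP16 had 1088 to 1393 normalised counts with IgA, against 1363 to 1805 in untreated cells and 1380 to 1716 with IgG. Its log2 values of -0.26 over IgG and -0.30 over untreated cells missed the threshold (adjusted p 0.183 and 0.126).

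IgG against untreated cells gave no member call in either direction, and 0.0% of all genes higher and 0.0% lower (edgeR). Of the members 0 had an unadjusted p under 0.05, and DESeq2 called 0. With the replicate number as a block in a fit of these 6 libraries, 0 members and 5 other genes, all lower, passed. The libraries of these groups were taken as paired by their number, which is an assumption. DUSP4, DUSP8, DUSP9 and DUSP10 were higher with IgG in all 3 pairs, and DUSP4 was the member whose groups did not overlap (730 to 815 normalised counts with IgG and 626 to 727 without antibody). Neither pattern was counted over all genes, so they are not read as an effect of IgG on the members. In the fit of 6 libraries with the block the log2 value was 0.19 for DUSP4 (SE 0.09, adjusted p 0.998) and 0.27 for DUSP10 (SE 0.13, adjusted p 0.998). For DUSP5 it was 0.10, with an interval of 2 SE from -0.09 to 0.29, and for DUSP1 -0.02, with one from -0.23 to 0.20. Without the block, in the fit of all 9 libraries, the intervals were -0.14 to 0.35 and -0.58 to 0.64. With the block in all 9 libraries they were -0.12 to 0.32 and -0.65 to 0.70. The block alone therefore did not narrow the interval of DUSP1.

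**Figure D4:**
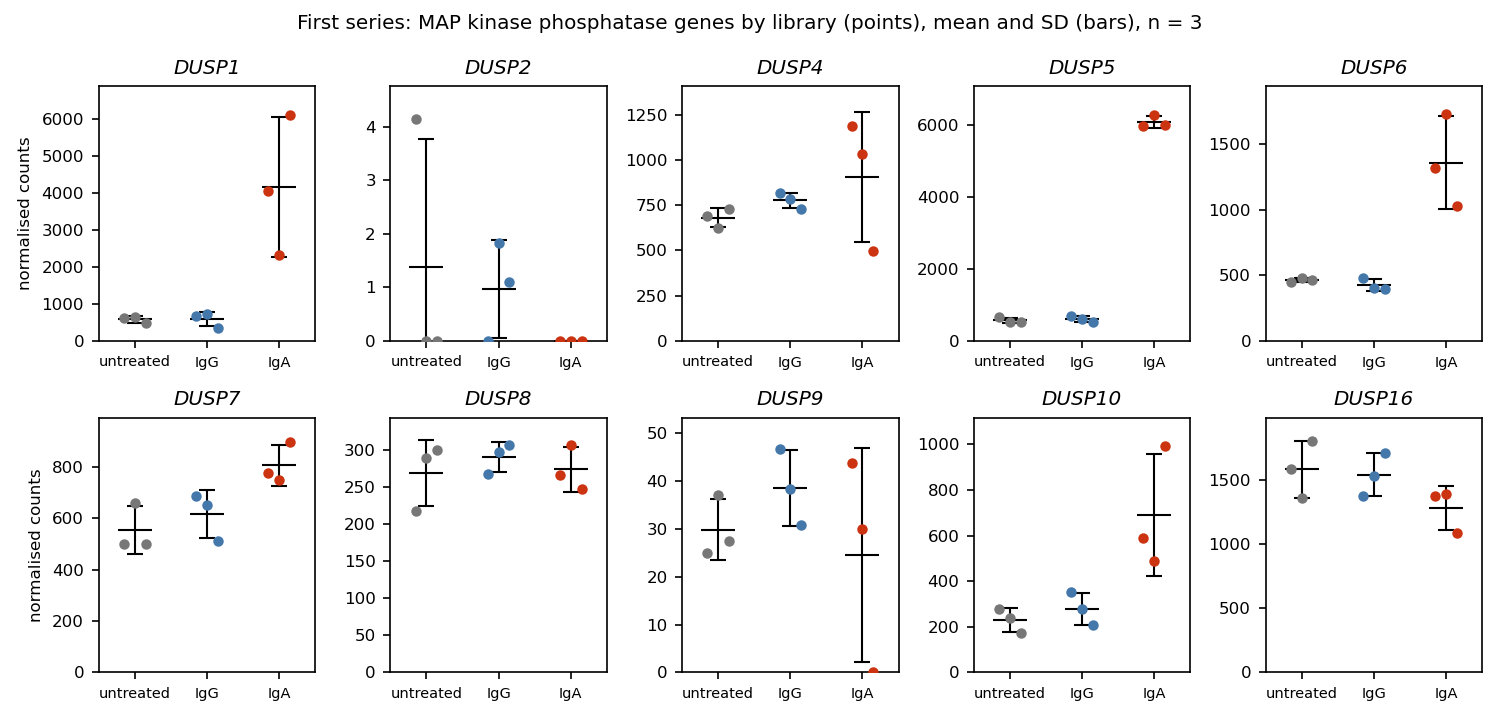
Normalised counts of each member in the first series, a point for each library of untreated cells, IgG and IgA, with bars for the mean and SD (n = 3), on axes that start at 0 and differ between panels. The IgA points of DUSP5 (5973 to 6281) lie far above the rest, those of DUSP1 are spread from 2329 to 6083, and those of DUSP4 lie on both sides of the other groups.

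Each antibody's values for a member can be set side by side, each over the untreated cells of its own series. DUSP5 had log2 fold changes of 3.42 with IgA, 0.59 with TSPAN7 IgA and 0.16 with BDNF IgA, and DUSP1 of 2.84, 0.53 and -0.11. DUSP8 had 0.03, 0.51 and 0.47, and DUSP6 1.55, -0.18 and -0.06. DUSP10 had 1.58, 0.14 and 0.07. The series were not tested against each other.

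**Figure D5:**
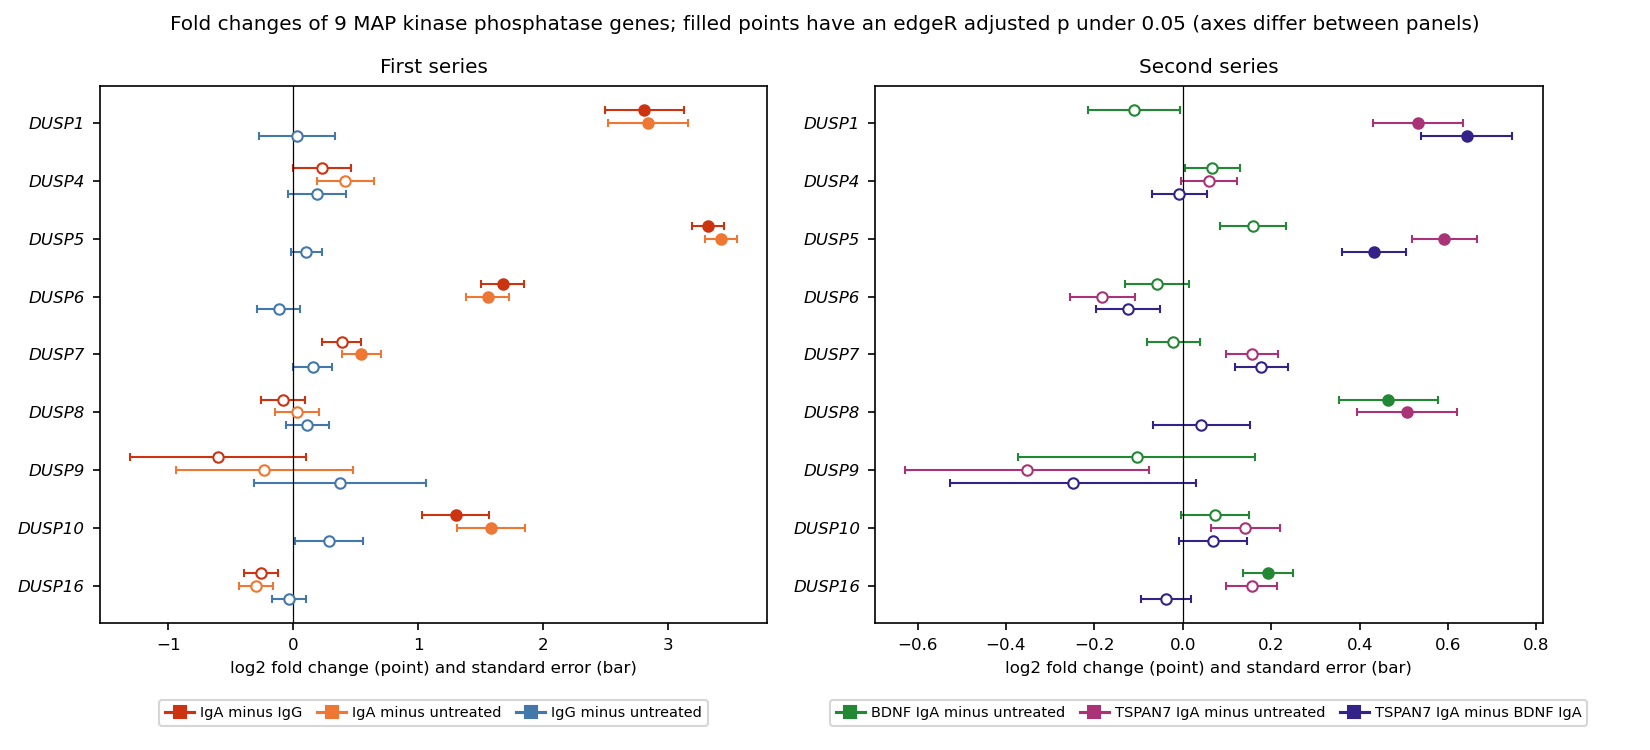
Log2 fold change of the 9 members tested, with its standard error, in the 3 comparisons of the first series (left) and of the second (right), filled where the adjusted p was under 0.05. DUSP5 stands at 3.32 and 3.42 with IgA on the left and at 0.59 with TSPAN7 IgA on the right, where the axis is narrower, and DUSP8 at 0.47 and 0.51 with the specific antibodies.

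Other genes of the pathway were also called, and the shares of all genes called higher and lower are given first. Over untreated cells these were 4.46% and 4.08% with TSPAN7 IgA and 4.49% and 3.18% with BDNF IgA. They were 3.42% and 4.5% for TSPAN7 over BDNF IgA, and 12.6% and 11.6% for IgA over IgG. Immediate-early genes, mostly of transcription factors, are induced by ERK and the stress kinases. Of 14 such genes 8 were higher with TSPAN7 IgA than in untreated cells. The log2 fold change was 0.82 for ATF3, 0.73 for FOSB and 0.42 for FOS, and the median of the 14 was 0.21. With BDNF IgA 3 were higher (FOS 0.25, FOSL2 0.24 and EGR1 0.17), and TSPAN7 IgA exceeded BDNF IgA for 4, FOSB and FOSL1 leading with 0.58 each. With IgA over IgG 6 were higher, FOSL1 by 3.32 and IER3 by 2.32, and 3 lower, EGR3 by 2.31 on the log2 scale among them. With BDNF IgA 0 of 10 MAP kinases and 0 of 7 MAP kinase kinases passed the edgeR test, against 1 and 2 at an unadjusted p under 0.05 and 0 and 1 with DESeq2. With TSPAN7 IgA, MAPK9, which encodes JNK2, was higher by 0.19 and MAP2K7, a kinase that activates JNK, was at -0.28 (adjusted p 0.00268). IgA over IgG raised 2 MAP kinases (MAPK9, 0.50, being one) and lowered 2, MAPK7 (-0.56) and MAPK14 (-0.34). Of the MAP kinase kinases it raised MAP2K3 (0.61) and MAP2K1 (0.51) and lowered MAP2K6 (-0.53, adjusted p 0.0389). The median in this comparison was 0.00 over the MAP kinases, 0.17 over the MAP kinase kinases and -0.01 over all genes. With lists this short, the counts of kinases are not read as a result about them.

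Other phosphatases differed from the members in part. PTPRR, a tyrosine phosphatase that binds ERK, was higher with TSPAN7 IgA over untreated cells by 0.72 (SE 0.11, adjusted p 1.20e-04), over BDNF IgA by 0.41 (adjusted p 0.0179), and with IgA over IgG by 1.00 (adjusted p 0.00522). It is one of 8 phosphatases outside the DUSP family, tyrosine or serine/threonine phosphatases, that act on MAP kinases. Of these 6 were tested, and PTPRR and PPM1B (0.20) were higher with TSPAN7 IgA over untreated cells. PPM1D, which acts on p38, was lower with IgA over IgG (-0.56, adjusted p 0.00609). Of 16 atypical dual-specificity phosphatases, mostly small relatives without the domain that docks MAP kinases, 14 were tested in the second series. Over untreated cells edgeR called 0 of them with TSPAN7 IgA (0 at an unadjusted p under 0.05) and 0 with BDNF IgA (1 unadjusted), as did DESeq2. DUSP27 was lower with TSPAN7 than with BDNF IgA (-1.69) by edgeR but not by DESeq2. Its counts were low, with means of 6.65 and 21.6 normalised counts against 7.74 in untreated cells. In the first series 13 were tested, and STYXL1 was higher (0.48) and DUSP19 lower (-0.89) with IgA over IgG. These counts are no more than the shares of all genes, 12.6% higher and 11.6% lower. Among 7 Sprouty and SPRED inhibitors of the RAS to ERK pathway, SPRY4 was higher by 2.38 and SPRED2 by 0.31 with IgA over IgG, and SPRY3 was lower (-0.81, adjusted p 0.0480). SPRED2 was higher by 0.18 with TSPAN7 IgA over untreated cells, and SPRY1 was lower with TSPAN7 than with BDNF IgA (-0.26, adjusted p 0.0211).

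The genes whose levels followed those of DUSP5 and DUSP6 most closely across the 9 libraries of a series are given as a description, since the libraries of a group move together. In the second series they included PPP4R1, SNAPC1, EGFR and CXCL2 for DUSP5, with Pearson's r from 0.977 to 0.979 across log2 CPM of 14082 genes compared. For DUSP6 they were ZNF836, C6orf223, HOXD-AS2, GGCX and RP11-558F24.4, with r from 0.926 to 0.970. In the first series HDAC9, CXCL3, CCL20, TNFAIP3 and PTX3 followed DUSP5 (r from 0.994 to 0.996), and ERO1L, CXCL1, FAF1, TNFRSF21 and CXCL2 followed DUSP6 (r from 0.983 to 0.990).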

How the data were processed

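RNA from 18 OVCAR3 libraries was sequenced as paired ends after an Ovation Human FFPE library kit. Adaptors were trimmed by the authors with cutadapt, and reads were aligned to GRCh37 with STAR. Uniquely mapped ones were assigned to Gencode V30 genes with featureCounts and compared with DESeq2. The processing notes of the submitters name bcl2fastq 2.20.0.422, cutadapt 1.8.1 and HTSeq 0.6.1. The deposited values are raw read counts per gene symbol, and no source says that strand was used in counting, so overlapping genes may share reads. The second table held 57820 rows, of which 2055 exact repeats were removed, none of them a member. Replicates differed by more than sampling noise (chi-square per degree of freedom 4.16 to 259), so none was counted as a copy. Depth is the total count of a library, and errors are those between replicates, since no molecular identifiers mark independent molecules.

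The 9 libraries of a series were fitted together in edgeR 4.0.16 (R 4.3.3), with filterByExpr, TMM factors and the two-sided quasi-likelihood F test. The p-values were adjusted by Benjamini-Hochberg over all genes tested, 18012 and 18732, and called under 0.05. The SE of a log2 fold change is its size over the root of F. Exon lengths and positions are from GENCODE v44 lifted to GRCh37, and promoters from RefSeq on GRCh38.p14. The members and the other gene lists were chosen with earlier results of these data known. All members were described whatever their values, with up to 3 called genes of each other list per comparison and the 5 genes most like DUSP5 and DUSP6, of which 1 is not reported here. Alternatives were DESeq2 1.42.0, other scalings and filters, only the 6 libraries compared, a replicate block, a robust spread and leaving out each library. The block within the 6 libraries compared was chosen after seeing the data. The fits were tested on simulated data.

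Replicate numbers are shared between groups, but nothing in the labels ties them to a culture or day. Deviations of same-numbered libraries from their group means correlated over 0.1 in every pair only for IgG and untreated cells of the first series (0.159, 0.119 and 0.511). These were taken as paired. Libraries with different numbers were not compared, so the pairing is an assumption.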

Additional observations from a re-analysis of the deposited data

Results flagged for a closer look

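DUSP6 lay on opposite sides of untreated cells in the series. All 3 IgA libraries lay above their untreated cells, with a log2 fold change of 1.55, and all 3 TSPAN7 IgA libraries lay below theirs, with -0.18, which missed the threshold on its own. The difference between these values was not tested. Leaving out single libraries, the value with TSPAN7 IgA ranged from -0.21 to -0.12 and was never called. DUSP6 was flagged because its libraries part in this way, and the share of all genes that do so was not counted.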

How the results depend on the processing

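Of 1019 log2 fold changes of members under other settings, 977 kept their direction and their side of the threshold, 23 changed sign, 14 lost a call and 5 gained one. Of 240 shares of members in the member counts under other settings, 55 were counted as moved by at least the SD between replicates. Leaving out a library cannot move a mean of 3 by that SD, so shares that stayed under that setting show no stability. The moves came from counting per kilobase of exon. DUSP2 with IgA, at 0 with an SD of 0, was counted as moved without moving. The cause was not tested where none is given. Library size scaling put DUSP8 with IgA over untreated cells at -0.17 and gave 1 lower member there in place of 0. For BDNF IgA over untreated cells, only the 6 libraries compared gave 1 higher member in place of 2, as did those 6 with a replicate block. A robust spread gave 1 higher member in place of 2 for TSPAN7 over BDNF IgA. In the replicate block within 6 libraries DUSP1 with IgG over untreated cells was at -0.017. The block over all 9 libraries changed no member call, and the block in 6 libraries lost the calls of DUSP16 with BDNF IgA (adjusted p 0.0517) and of DUSP7 with IgA (adjusted p 0.0544), both over untreated cells. Outside IgG against untreated cells the correlations of same-numbered libraries were -0.107 to 0.156. The numbers were not shown to pair the libraries in any comparison.

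Leaving out single libraries moved BDNF IgA over untreated cells between 0 and 2 higher and 0 and 1 lower members. With IgA over IgG, DUSP4 ranged from -0.014 to 0.51. With IgA over untreated cells, DUSP8 ranged from -0.11 to 0.11 and DUSP9 from -0.87 to 0.30. With IgG over untreated cells the ranges were -0.15 to 0.28 for DUSP1, -0.0040 to 0.21 for DUSP5, -0.019 to 0.19 for DUSP8 and -0.14 to 0.062 for DUSP16. With BDNF IgA they were -0.33 to 0.014 for DUSP1, -0.0044 to 0.12 for DUSP4, -0.051 to 0.0063 for DUSP7 and -0.36 to 0.10 for DUSP9. For TSPAN7 over BDNF IgA they were -0.064 to 0.062 for DUSP4, -0.041 to 0.12 for DUSP8, -0.46 to 0.0091 for DUSP9 and -0.078 to 8.1e-05 for DUSP16. Among all genes, the calls over all settings ranged from 873 to 2520 higher and 1030 to 3629 lower for IgA over IgG, and from 1001 to 2512 and 1236 to 3291 over untreated cells. They ranged from 429 to 1505 and 293 to 1293 for BDNF IgA, from 429 to 1216 and 328 to 1199 for TSPAN7 IgA, and from 196 to 1554 and 286 to 1722 for TSPAN7 over BDNF IgA. IgG over untreated cells gave 0 higher and 0 to 5 lower. Depth limits DUSP2 and DUSP9, and 3 libraries a group limit the smaller differences.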
